A study of Mus musculus with 3 samples.

Results

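Duodenal iron and calcium absorption was followed through 8 genes chosen by name for their roles, with earlier results of these data known. The genes were Cybrd1, Slc11a2, Slc40a1, Heph and Tfrc for iron, and S100g, Atp2b1 and Trpv6 for calcium. All 8 were found among the 24136 genes that received a symbol in 3 RNA-seq libraries of sorted cells from the upper small intestine of C57BL/6 mice. GIP-GFP held cells sorted for green fluorescence from mice in which it reports the incretin hormone GIP. Ngn3-TOMATO held tomato-positive cells of male mice that carry Neurogenin3 (Ngn3)-Cre and a ROSA26-LoxP-STOP-LoxP-tomato allele, so that tomato stays on in every descendant of a cell that had expressed Ngn3. Ngn3-negative held the tomato-negative epithelial cells of the same cross, and both tomato sorts took CD45-negative cells only. The cells came from the villus fraction, RNA of individual samples was pooled into 1 library per group, and the sources used here give neither the age of the mice, the number in a pool nor the sex of the GIP-GFP mice. No group was repeated, so the differences have no replicate check and were not tested. Intervals are 95% counting intervals from the limits deposited with each value and leave out variation between mice and sorts.

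In the duodenum, ferric iron is reduced at the brush border, enters the absorptive enterocyte as ferrous iron, is stored in ferritin or leaves through ferroportin at the basolateral side, and is oxidised again on exit. Calcium takes a parallel transcellular route: a channel in the brush border, a small binding protein that carries it across the cytosol, and a pump in the basolateral membrane, with the first steps under vitamin D. Iron supply is also read after transcription, because iron regulatory proteins bind hairpins called iron-responsive elements (IREs) in certain transcripts when iron is scarce. An IRE in the 3' untranslated region protects a transcript from decay, and one in the 5' untranslated region blocks its translation.

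The IREs of these genes are shown because the transcript forms described below are named by them. Annotated GENCODE M21 transcripts were searched for an unpaired C, 5 bases, the loop CAGTGN and 5 bases that pair with the first 5, G-U pairs included, with 1 unpaired base allowed inside the 3' strand. Tfrc had 4 such elements and Slc11a2 and Slc40a1 had 1 each, while the other 5 genes had none. Of 21877 protein-coding genes, 4.03% had a match by the same rule and 1.34% without the unpaired base, which only the Slc11a2 element needed. Sequences are DNA letters of the transcript strand on GRCm38, and capitals mark the loop. The Slc40a1 element lies in the 5' untranslated region (minus strand, chr1:45925466-45925492), the Slc11a2 element in the 3' untranslated region of transcript Slc11a2-205 only (minus strand, chr15:100395153-100395180), and the Tfrc elements in the 3' untranslated region (plus strand), listed from 5' to 3' from chr16:32631220-32631246 to chr16:32631711-32631737.
Slc40a1: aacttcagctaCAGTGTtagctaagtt
Slc11a2: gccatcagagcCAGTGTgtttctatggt
Tfrc, element 1: attatcggaagCAGTGCcttccataat
Tfrc, element 2: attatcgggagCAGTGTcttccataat
Tfrc, element 3: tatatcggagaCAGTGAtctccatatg
Tfrc, element 4: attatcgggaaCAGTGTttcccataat

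The libraries held 592 Mb (GIP-GFP), 1380 Mb (Ngn3-TOMATO) and 1030 Mb (Ngn3-negative) of read bases over the listed transcripts. Values are scaled FPKM: deposited FPKM, a measure per transcript length, summed per gene and divided by 1 common number. Gip followed the labels, at 240290, 27887 and 726 scaled FPKM in the GIP-GFP, Ngn3-TOMATO and Ngn3-negative libraries. Neurog3, the gene after which the tomato sorts are named, was at 4.45, 23.9 and 13.8 in the same libraries, so it was not confined to the tomato-positive sort and was lowest in GIP-GFP. The summed level of 12 enterocyte markers was 13491 in GIP-GFP cells, 9721 in Ngn3-TOMATO cells and 46073 in Ngn3-negative cells, and none of these markers was listed at 0. The library labelled as enteroendocrine, Ngn3-TOMATO, also held goblet and Paneth transcripts above the other sorts. Its 7 goblet markers summed to 170472, against 5345 in GIP-GFP and 30858 in Ngn3-negative, and its 6 Paneth markers to 26734, against 2259 in GIP-GFP and 4741 in Ngn3-negative. The 6 tuft markers summed to 288 in Ngn3-TOMATO, 42.1 in GIP-GFP and 140 in Ngn3-negative. Sums of 10 cell cycle markers, given for GIP-GFP, Ngn3-TOMATO and then Ngn3-negative, were 192, 229 and 714, with Tk1 listed at 0 in both reporter libraries. For blood cells, 8 erythroid markers summed to 42.3, 71.6 and 253, and 8 macrophage markers to 15.7, 22.8 and 14.3 with C1qb and Cd163 listed at 0 throughout. The 7 lymphocyte markers that could be matched summed to 376, 62.9 and 156, and the labels state no CD45 gate for GIP-GFP. In such pooled libraries, fewer cells of a type and less RNA per cell cannot be told apart.

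Genes of iron and calcium uptake were lower in both reporter sorts than in the reporter-negative epithelium, apart from Atp2b1. S100g, the cytosolic calcium carrier, was 13.4-fold lower in GIP-GFP and 7.49-fold lower in Ngn3-TOMATO than in Ngn3-negative. The iron genes were 1.73-fold to 2.70-fold lower in GIP-GFP and 1.47-fold to 2.90-fold lower in Ngn3-TOMATO. Folds are ratios after adding a pseudocount of 1 scaled FPKM, which understates the difference for low genes, and 2-fold was the size used to call a gene higher or lower. S100g had the lowest ratio of the 8 genes on that scale, and Trpv6 had it with a pseudocount of 0.1, at log2 -5.11 in GIP-GFP and -3.27 in Ngn3-TOMATO against -3.75 and -2.91 for S100g.

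In Ngn3-TOMATO against Ngn3-negative, 5 of the 8 genes were at least 2-fold lower and 0 higher, with a median log2 ratio of -1.31. Of all 13437 genes compared, 9.91% were at least 2-fold lower and 19.2% higher, and the median was 0.03. In GIP-GFP against Ngn3-negative, 3 of the 8 were at least 2-fold lower and 0 higher, with a median of -0.98. There, 13.8% of 13459 genes were lower and 21.1% higher, with a median of 0.07. Both counts depend on the scale. With the libraries scaled to equal totals, 6 of 8 were lower in GIP-GFP, with Cybrd1 (-1.06), Slc11a2 (-1.18) and Heph (-1.20) added, and 17.9% of all genes. In Ngn3-TOMATO, 6 of 8 were then lower, with 14.6% of all genes. The Ngn3-TOMATO count was 4 of 8 under the median ratio, with 8.08% of all genes. It was also 4 of 8 with totals that leave out the 20 most abundant genes (7.84%) or with a pseudocount of 5 (6.71%). Scaling to equal totals moved the median of all genes to -0.13 in GIP-GFP and -0.20 in Ngn3-TOMATO. Of all genes past 2-fold, 60.5% were higher in GIP-GFP and 66.0% in Ngn3-TOMATO as deposited, against 51.0% and 53.3% under equal totals. The 12 enterocyte markers had medians of -1.76 in GIP-GFP and -2.12 in Ngn3-TOMATO, with 10 of 12 at least 2-fold lower in each, and their part in the lower values of the absorption genes was not tested. Both comparisons share the Ngn3-negative library.

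**Figure D1:**
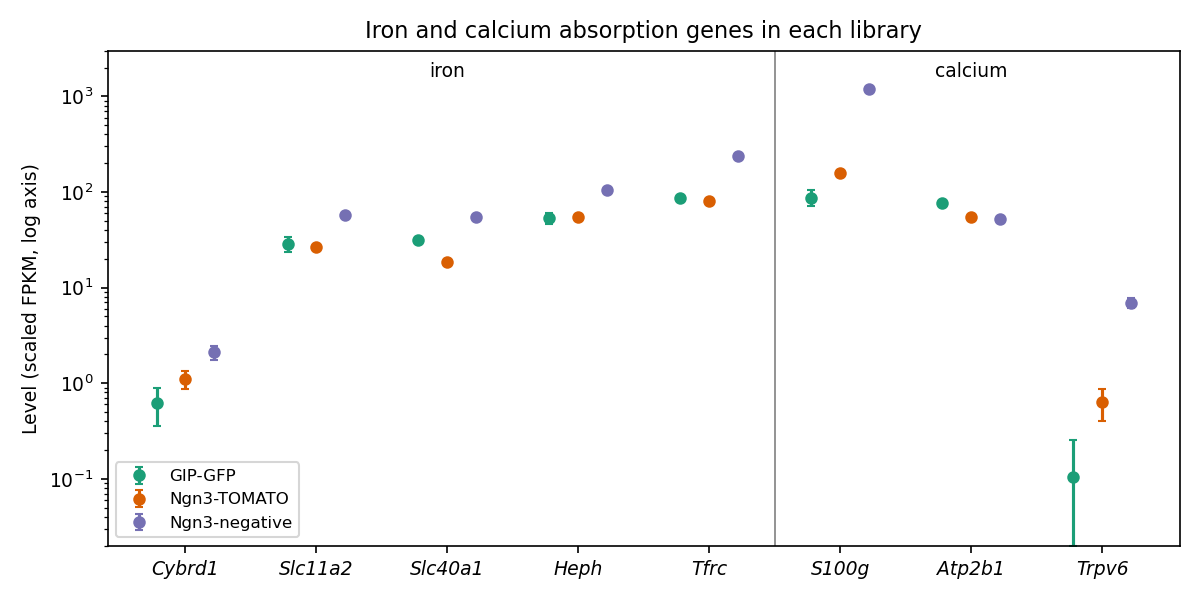
Level of each gene in scaled FPKM (log axis) in the GIP-GFP, Ngn3-TOMATO and Ngn3-negative sorts, 1 pooled library each; bars are 95% counting intervals, cut at the axis for Trpv6 in GIP-GFP. Ngn3-negative is the highest library for every gene except Atp2b1, which is highest in GIP-GFP at 77.3.

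Cybrd1 encodes duodenal cytochrome b, the brush-border reductase that turns ferric into ferrous iron. Its level was 0.626 scaled FPKM in GIP-GFP cells, 1.10 in Ngn3-TOMATO cells and 2.10 in Ngn3-negative cells. That is low in all libraries: in Ngn3-negative the gene exceeded only 7.27% of the genes at 1 or more, and in GIP-GFP it rested on 0.903 kb of read bases. The log2 ratio to Ngn3-negative was -0.93 (-1.22 to -0.64) in GIP-GFP and -0.56 (-0.79 to -0.33) in Ngn3-TOMATO, both short of 2-fold. Without the pseudocount the levels differed 3.36-fold and 1.90-fold, with Ngn3-negative higher. The model uc008kaf.2 (chromosome 2, 71118054 to 71142926, mm10) carried all of it.

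Slc11a2 encodes DMT1, the proton-coupled importer that brings ferrous iron through the brush border. It stood at 28.7 scaled FPKM in GIP-GFP cells, 26.3 in Ngn3-TOMATO cells and 57.3 in Ngn3-negative cells. The reporter libraries lay close together, with a log2 ratio of GIP-GFP to Ngn3-TOMATO of 0.12 (-0.15 to 0.40) whose interval includes 0, and the reporter-negative library was above both. The log2 ratio to Ngn3-negative was -0.97 (-1.24 to -0.70) in GIP-GFP and -1.10 (-1.20 to -0.99) in Ngn3-TOMATO.

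The Slc11a2 signal was divided between models whose closest annotated transcripts are the forms with and without the IRE. Model uc007xrd.2 (chromosome 15, 100392658 to 100423055, 4373 bases) is closest to Slc11a2-205, which holds the element printed above. Model uc007xrc.2 (100387900 to 100423055, 3023 bases) is closest to Slc11a2-201, which runs farther 3' and lacks it. Neither model has exact ends in the annotation, and the genomic span of both covers the element. The names IRE form and other form below rest on the closest transcript. The IRE form was at 13.5 scaled FPKM in GIP-GFP cells, 11.5 in Ngn3-TOMATO cells and 31.4 in Ngn3-negative cells. The form without the IRE was at 15.2, 14.7 and 25.9 in the same libraries. The ratio of the IRE form to the other form was 0.894 (0.615 to 1.30) in GIP-GFP, 0.781 (0.695 to 0.878) in Ngn3-TOMATO and 1.21 (1.11 to 1.33) in Ngn3-negative. The intervals of Ngn3-TOMATO and Ngn3-negative do not overlap, while that of GIP-GFP overlaps both. The log2 ratio to Ngn3-negative was -1.16 for the IRE form and -0.73 for the other form in GIP-GFP, and -1.37 and -0.77 in Ngn3-TOMATO. Both forms share most exons, so the split is an estimate of the quantification and these intervals treat the forms as independent. The intervals may therefore be too narrow, and their overlap or lack of it does not settle whether the split differed.

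Slc40a1 encodes ferroportin, the basolateral exporter and the only known way for iron to leave the cell. Levels were 31.4 scaled FPKM in GIP-GFP cells, 18.6 in Ngn3-TOMATO cells and 54.9 in Ngn3-negative cells. Here the reporter libraries differed from each other: between GIP-GFP and Ngn3-TOMATO the log2 ratio was 0.73 (0.59 to 0.86), the highest among the 7 genes compared between them. Relative to Ngn3-negative the gene was 1.73-fold lower in GIP-GFP (log2 -0.79, -0.91 to -0.67) and 2.86-fold lower in Ngn3-TOMATO (log2 -1.51, -1.62 to -1.41). All of the signal was assigned to uc007awu.1 (chromosome 1, 45908070 to 45925594), whose span covers the 5' IRE, and the other 3 models of the gene were listed at 0. Macrophages also express ferroportin. Of the 8 macrophage markers, C1qb and Cd163 were listed at 0 throughout, Adgre1 and Csf1r were at or below 0.197, and the other 4 reached 10.7 at most: C1qa was highest in Ngn3-TOMATO (10.7), Lyz2 in GIP-GFP (10.5), and Itgam (6.86) and Cd68 (5.16) in Ngn3-negative. The tomato sorts were gated on absence of CD45, a gate meant to leave out macrophages, but how fully it did so was not measured. The part of any such cells in the Slc40a1 values was not tested.

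Heph encodes hephaestin, the membrane ferroxidase that works beside ferroportin. It stood at 52.9 scaled FPKM in GIP-GFP cells, 54.4 in Ngn3-TOMATO cells and 106 in Ngn3-negative cells. The reporter libraries differed by less than the counting error, with a log2 ratio of GIP-GFP to Ngn3-TOMATO of -0.04 (-0.23 to 0.15). Against Ngn3-negative the log2 ratio was -0.99 (-1.18 to -0.81) in GIP-GFP and -0.95 (-1.01 to -0.90) in Ngn3-TOMATO. The signal came from uc009tul.2 (chromosome X, 96455436 to 96574484), with 30.0% of it in GIP-GFP given to uc009tuk.2, a model of the same ends that differs by 3 bases in length.

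Tfrc encodes transferrin receptor 1, which takes up transferrin-bound iron from the circulation and is known to be most abundant in dividing crypt cells. Its level was 87.1 scaled FPKM in GIP-GFP cells, 81.1 in Ngn3-TOMATO cells and 237 in Ngn3-negative cells, the highest of the iron genes in each library. Ngn3-negative was above both reporter libraries, at log2 ratios of -1.43 (-1.50 to -1.36) for GIP-GFP and -1.53 (-1.59 to -1.48) for Ngn3-TOMATO. The ratio between the reporter libraries was small (log2 0.10, 0.03 to 0.18). The cell cycle markers moved with it, with medians of -1.80 in GIP-GFP and -1.52 in Ngn3-TOMATO against Ngn3-negative and 10 of 10 at least 2-fold lower in each, Tk1 included. Of 6 erythroid markers compared, the 4 globin genes were at least 2-fold lower in each. The other 2 were not: Epb42 was at 0.31 in GIP-GFP and 1.77 in Ngn3-TOMATO, and Alas2 at 0.67 and -0.80, on the log2 scale, both named after their values were seen. The part of dividing or erythroid cells in the Tfrc values was not tested.

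The whole-gene Tfrc model uc007yza.2 (chromosome 16, 32608896 to 32632794) held 69.5%, 69.3% and 68.3% of the signal in the GIP-GFP, Ngn3-TOMATO and Ngn3-negative libraries. The rest went to uc007yzb.2, which begins at 32624442 and covers the 3' part of the gene with the 4 IREs. The share was nearly the same in each library, and the log2 ratios to Ngn3-negative were -1.40 and -1.46 for the whole-gene and the 3' model in GIP-GFP, and -1.51 and -1.56 in Ngn3-TOMATO.

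**Figure D2:**
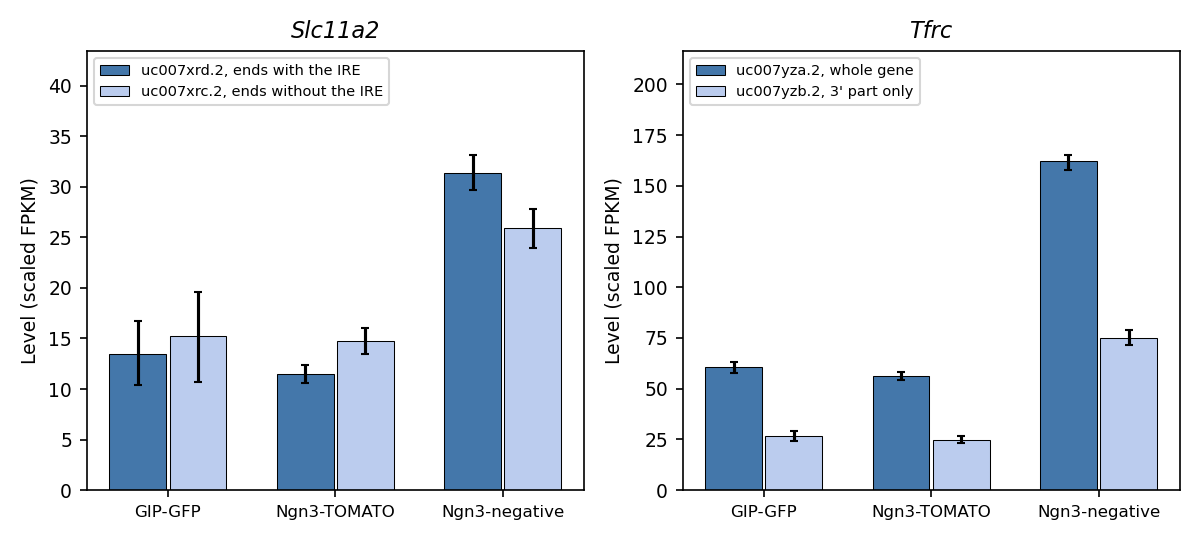
Level in scaled FPKM of the transcript models of Slc11a2 and Tfrc in the GIP-GFP, Ngn3-TOMATO and Ngn3-negative libraries; bars start at 0 and whiskers are 95% counting intervals. The IRE form of Slc11a2, named by its closest annotated transcript, is the higher form in Ngn3-negative, at 31.4 against 25.9. It is the lower one in Ngn3-TOMATO, at 11.5 against 14.7.

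Among the calcium genes, the promoters of S100g and Trpv6 are shown because these genes had the lowest ratios of the 8 in both reporter libraries. Windows of 250 bases upstream of the RefSeq start (GRCm38.p6) were found for 5 of the 8 genes and searched on both strands. The motifs, with the share of 32851 mouse windows of this length that hold each, were TATAAA, the TATA box (12.4%), TTTATG, a site of CDX factors (10.8%), AGATAA, a site of GATA factors (9.99%), and ACGTG, the core of hypoxia response elements (16.6%). AGGTCA (14.0%) along with GGTTCA (8.85%) stood for binding elements of nuclear receptors, the vitamin D receptor among them. S100g had 2 matches to AGGTCA and 1 to GGTTCA, Trpv6 had 2 to AGGTCA, and neither window held the other motifs. Cybrd1 and Atp2b1 had no match, and Tfrc had 1 to ACGTG in 1 of its windows. A match is a description of these letters and not evidence of binding. Both windows are on the minus strand, written 5' to 3' toward the start, at chrX:162964600-162964849 for S100g and chr6:41636406-41636655 for Trpv6, with matches on either strand in capitals.
S100g: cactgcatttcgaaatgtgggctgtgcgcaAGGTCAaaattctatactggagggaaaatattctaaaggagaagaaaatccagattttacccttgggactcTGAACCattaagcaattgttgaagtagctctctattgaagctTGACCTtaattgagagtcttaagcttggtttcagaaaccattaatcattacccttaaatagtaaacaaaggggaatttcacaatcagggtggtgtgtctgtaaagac
Trpv6: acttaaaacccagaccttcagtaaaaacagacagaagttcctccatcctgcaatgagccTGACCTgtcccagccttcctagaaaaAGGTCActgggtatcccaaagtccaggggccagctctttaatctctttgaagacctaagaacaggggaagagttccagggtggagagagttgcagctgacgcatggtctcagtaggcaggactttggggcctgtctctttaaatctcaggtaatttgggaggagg

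Trpv6 encodes the channel through which calcium enters at the brush border. It was at 0.105 scaled FPKM in GIP-GFP cells (0 to 0.252), 0.634 in Ngn3-TOMATO cells (0.407 to 0.861) and 6.98 in Ngn3-negative cells (6.12 to 7.84). The gene was at the edge of detection in the reporter sorts and low in the reporter-negative one, where it exceeded 20.9% of the genes at 1 or more. The log2 ratio to Ngn3-negative was -2.85 (-3.10 to -2.61) in GIP-GFP and -2.29 (-2.54 to -2.03) in Ngn3-TOMATO. Without the pseudocount the Ngn3-TOMATO level was 11-fold below Ngn3-negative, and the GIP-GFP value rested on 0.0856 kb of read bases, too few to size its distance. Between the reporter libraries it was not compared, being under 1 scaled FPKM in both.

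S100g encodes calbindin-D9k, the small EF-hand protein that binds calcium and carries it across the enterocyte. Its level was 87.4 scaled FPKM in GIP-GFP cells (70.9 to 104), 157 in Ngn3-TOMATO cells (145 to 168) and 1180 in Ngn3-negative cells (1144 to 1216). In Ngn3-negative it exceeded 99.3% of the genes at 1 or more, and it was the most abundant of the 8 genes in every library. In GIP-GFP, though, its interval overlapped with those of Tfrc and Atp2b1. The log2 ratio to Ngn3-negative was -3.74 (-4.01 to -3.47) in GIP-GFP and -2.90 (-3.02 to -2.79) in Ngn3-TOMATO. Only 0.334% and 0.558% of all genes compared had a lower ratio. GIP-GFP was also below Ngn3-TOMATO, at log2 -0.84 (-1.12 to -0.55). The signal came from uc009uus.1 (480 bases), with 20.3% of it in GIP-GFP given to uc009uut.1, a model of the same ends and 483 bases. For uc009uus.1 alone, the log2 ratio of GIP-GFP was -4.06 to Ngn3-negative and -1.16 to Ngn3-TOMATO. The gene (chromosome X, 162961992 to 162964599) lies inside the span of Ctps2 on the other strand, which stood at 18.5, 10.3 and 7.35 scaled FPKM in the GIP-GFP, Ngn3-TOMATO and Ngn3-negative libraries. The sources used here do not say whether the counting used strand, and any part of Ctps2 reads in the S100g values was not tested.

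Atp2b1 encodes PMCA1, the plasma membrane pump that expels calcium on the basolateral side and is present in most cell types. It was at 77.3 scaled FPKM in GIP-GFP cells (74.9 to 79.8), 54.6 in Ngn3-TOMATO cells (53.2 to 55.9) and 52.1 in Ngn3-negative cells (50.5 to 53.7). It was the only one of the 8 genes above Ngn3-negative in a reporter library, with a log2 ratio of 0.56 (0.50 to 0.62) in GIP-GFP and 0.07 (0.01 to 0.12) in Ngn3-TOMATO, the second turning to -0.17 under equal totals. Neither ratio passed 2-fold. The ratio of S100g to Atp2b1, on the per-length scale, was 1.13 in GIP-GFP cells, 2.87 in Ngn3-TOMATO cells and 22.6 in Ngn3-negative cells.

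**Figure D3:**
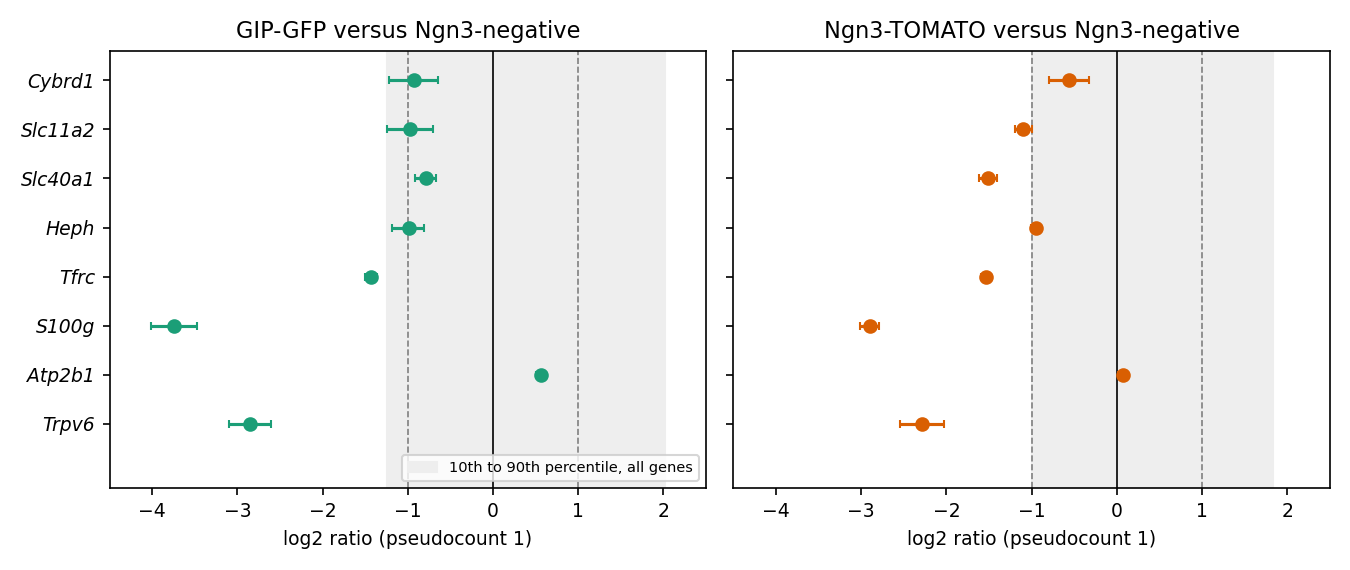
log2 ratio of each gene to Ngn3-negative in GIP-GFP (left) and Ngn3-TOMATO (right), with 95% counting intervals; dashed lines mark 2-fold and the grey band the 10th to 90th percentile of all genes compared. S100g lies at -3.74 and -2.90, Trpv6 at -2.85 and -2.29 and Tfrc at -1.43 and -1.53, left of the band in both panels. Slc40a1 (-1.51) and Slc11a2 (-1.10) lie left of it in Ngn3-TOMATO only. Atp2b1 lies at 0.56 and at 0.07, the second of which is -0.17 under equal totals.

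Between the reporter sorts, GIP-GFP against Ngn3-TOMATO, 7 of the 8 genes could be compared, and 0 were at least 2-fold higher or lower. Of 13726 genes, 8.76% were at least 2-fold lower and 8.05% higher. The median log2 ratio of the 7 was 0.10, against 0.08 over all genes. Slc40a1 (0.73), Atp2b1 (0.50, 0.44 to 0.55) and Tfrc (0.10, 0.03 to 0.18) were higher in GIP-GFP, with intervals that exclude 0. The Tfrc ratio was close to the median of all genes. S100g (-0.84) and Cybrd1 (-0.37, -0.66 to -0.09) were lower, also with intervals that exclude 0. Slc11a2 and Heph had intervals that include 0. Enterocyte markers summed to 13491 in GIP-GFP and 9721 in Ngn3-TOMATO, and goblet markers to 5345 and 170472. Their part in these differences was not tested.

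The order of levels changed between the sorts. In GIP-GFP, S100g, Tfrc and Atp2b1 led, followed by Heph, Slc40a1, Slc11a2, Cybrd1 and Trpv6. There the interval of S100g overlapped with those of Tfrc and Atp2b1, and that of Slc40a1 with that of Slc11a2. In Ngn3-TOMATO the order was S100g, Tfrc, Atp2b1, Heph, Slc11a2, Slc40a1, Cybrd1 and Trpv6, with Atp2b1 and Heph overlapping. In Ngn3-negative it was S100g, Tfrc, Heph, Slc11a2, Slc40a1, Atp2b1, Trpv6 and Cybrd1, where the interval of Slc40a1 overlapped with those of Slc11a2 and Atp2b1. By level, Atp2b1 thus held position 3 of 8 in both reporter libraries and position 6 in Ngn3-negative. Each time its interval overlapped with that of another gene. Trpv6 and Cybrd1 were the lowest everywhere, with Cybrd1 last in Ngn3-negative.

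Of 18 genes for iron storage and handling, 15 passed the filter, 5 were at least 2-fold lower and 3 higher in GIP-GFP, and 3 were lower and 3 higher in Ngn3-TOMATO. Over all genes 13.8% and 9.91% were lower and 21.1% and 19.2% higher, so the share of higher genes was near that of all genes. Medians were -0.33 and -0.23. Fth1, the ferritin heavy chain that oxidises and stores iron, was the most abundant, at 1532 scaled FPKM in GIP-GFP cells, 1674 in Ngn3-TOMATO cells and 4433 in Ngn3-negative cells. It lay below Ngn3-negative by log2 ratios of -1.53 (-1.57 to -1.50) and -1.40 (-1.43 to -1.38). Slc25a37, the mitochondrial iron importer mitoferrin 1, was at 28.5, 44.5 and 114, and Slc39a14, a transporter of zinc, manganese and iron not bound to transferrin, at 26.4, 48.3 and 92.8, in the same order.

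Trf and Steap1 were at least 2-fold higher in both reporter libraries, Steap2 in GIP-GFP and Slc39a8 in Ngn3-TOMATO. Trf encodes the plasma iron carrier transferrin. It was at 62.0 scaled FPKM in GIP-GFP and 49.7 in Ngn3-TOMATO, against 2.76 in Ngn3-negative, at log2 ratios of 4.06 (3.81 to 4.32) and 3.75 (3.51 to 4.0). Steap1, a member of the STEAP family of metalloreductases, was at 140, 24.9 and 8.69 in the GIP-GFP, Ngn3-TOMATO and Ngn3-negative libraries. Its relative Steap2 was at 34.6, 10.4 and 6.74, with a log2 ratio of 0.56 in Ngn3-TOMATO that falls short of 2-fold. The family did not move as a whole. Steap3 was lower in both reporter libraries, at 5.97, 7.06 and 16.3, with log2 ratios of -1.31 and -1.10. Steap4 was at 0.185 or less in every library and was not compared. Steap3 and Steap4 were named after their values were seen. Slc39a8, a metal transporter related to Slc39a14 and named here after its values were seen, ran opposite ways, at a log2 ratio of -1.25 in GIP-GFP and 1.38 in Ngn3-TOMATO.

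Of 11 genes for heme uptake and breakdown, 10 were compared, 4 were at least 2-fold lower in GIP-GFP and 3 in Ngn3-TOMATO, and 1 was higher in each, where 13.8% and 9.91% of all genes were lower and 21.1% and 19.2% higher. Medians were -0.77 and -0.81. Slc46a1, a proton-coupled folate transporter also described as an intestinal heme carrier, was at 25.0 scaled FPKM in GIP-GFP cells, 21.4 in Ngn3-TOMATO cells and 155 in Ngn3-negative cells. Its log2 ratios of -2.58 (-2.76 to -2.41) and -2.80 (-2.92 to -2.68) were the lowest of the list. Flvcr1, a heme and choline transporter, was at 15.1, 12.9 and 54.9. The biliverdin reductase gene Blvrb was at 29.9, 20.2 and 46.1, and Alas1, which starts heme synthesis, at 50.4, 53.2 and 107. Flvcr2, a relative of Flvcr1, was at 0.712, 2.30 and 2.44. The higher gene was Slc48a1, a heme transporter of endolysosomes, at 53.9, 33.0 and 12.3.

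Genes that sense or regulate iron had medians near those of all genes, at 0.21 in GIP-GFP over 14 genes and 0.11 in Ngn3-TOMATO over 16. In GIP-GFP 3 were at least 2-fold lower and 2 higher, and in Ngn3-TOMATO 2 were lower and 3 higher, of 18 listed. Over all genes 13.8% and 9.91% were lower and 21.1% and 19.2% higher, and most of these counts lie near those shares. Aco1, which encodes iron regulatory protein 1, was the most abundant in Ngn3-negative but not in the reporter libraries, at 61.9, 54.8 and 156 scaled FPKM in the GIP-GFP, Ngn3-TOMATO and Ngn3-negative libraries. Its log2 ratio to Ngn3-negative was -1.31 (-1.39 to -1.24) in GIP-GFP and -1.49 (-1.54 to -1.43) in Ngn3-TOMATO. Epas1, the hypoxia factor HIF-2alpha, known in enterocytes to raise Cybrd1, Slc11a2 and Slc40a1, was at 6.07, 20.6 and 33.1. Egln3, a prolyl hydroxylase that marks hypoxia factors for decay, was at 9.57, 6.19 and 24.0.

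Hfe, the hemochromatosis gene that binds transferrin receptor 1, was at 29.5 scaled FPKM in GIP-GFP cells, 7.17 in Ngn3-TOMATO cells and 7.79 in Ngn3-negative cells. Tmprss6, a protease that lowers hepcidin in liver, was at 0.208, 6.71 and 0.129. Hamp, which encodes hepcidin, the hormone that closes ferroportin, was at 2.22 in GIP-GFP and 3.58 in Ngn3-TOMATO and was listed at 0 in Ngn3-negative. Without Hamp the medians were 0.20 and 0.03, with 1 and 2 genes higher.

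**Figure D4:**
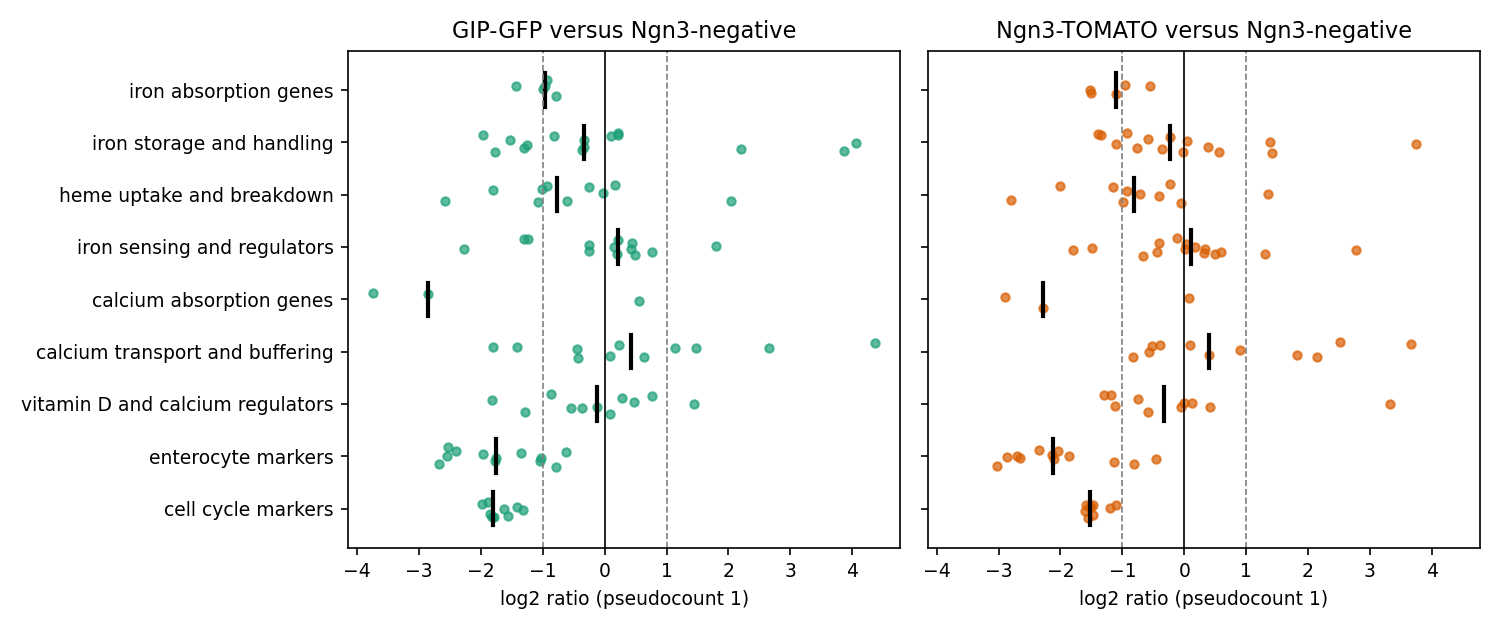
log2 ratio to Ngn3-negative of each gene compared in lists of iron and calcium genes and in the enterocyte and cell cycle markers, for GIP-GFP (left) and Ngn3-TOMATO (right); black lines are list medians, dashed lines mark 2-fold, and genes listed at 0 in a library count in the median but are not drawn. The iron absorption genes have medians of -0.97 and -1.10, and the enterocyte markers of -1.76 and -2.12.

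Further genes of calcium transport and buffering had medians of 0.43 in GIP-GFP over 12 genes and 0.40 in Ngn3-TOMATO over 11, of 19 listed. In GIP-GFP 5 were at least 2-fold higher and 2 lower, and in Ngn3-TOMATO 4 were higher and 0 lower. The shares over all genes were 21.1% and 19.2% higher and 13.8% and 9.91% lower. Slc8a1, the sodium-calcium exchanger NCX1, which offers another way out for calcium, was at 26.5 scaled FPKM in GIP-GFP and 15.7 in Ngn3-TOMATO, against 0.327 in Ngn3-negative. Its log2 ratios were 4.37 (4.28 to 4.47) and 3.66 (3.56 to 3.75). Atp2b4, a paralog of Atp2b1, was at 7.31, 6.56 and 0.328 in the GIP-GFP, Ngn3-TOMATO and Ngn3-negative libraries.

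Of the 4 listed pumps that fill intracellular calcium stores, Atp2c1 and Atp2c2 were at least 2-fold higher in GIP-GFP (log2 1.13 and 1.47), and Atp2a3 and Atp2c2 in Ngn3-TOMATO (2.14 and 1.83). The others were Atp2a2 at 0.64 and Atp2a3 at 0.23 in GIP-GFP, and Atp2a2 at 0.40 and Atp2c1 at 0.90 in Ngn3-TOMATO. Atp2a2 and Atp2c1 were named after their values were seen. Atp2a3, the SERCA3 pump of the endoplasmic reticulum, was at 111 scaled FPKM in GIP-GFP cells, 420 in Ngn3-TOMATO cells and 94.6 in Ngn3-negative cells. Atp2c2, a Golgi pump, was at 33.0, 42.9 and 11.3. S100a10, an S100 protein that partners annexin A2 and binds Trpv6, was the most abundant of the list in both Ngn3 libraries but not in GIP-GFP, at 326, 645 and 1150. Cacna1d, a voltage-gated channel subunit, was at 12.9 in GIP-GFP and listed at 0 in the other libraries. Without it, the GIP-GFP median of the list was 0.23 with 4 genes higher.

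Regulators of calcium absorption had medians of -0.12 in GIP-GFP and -0.33 in Ngn3-TOMATO, over 11 and 10 of 14 listed genes. In GIP-GFP 2 were at least 2-fold lower and 1 higher, and in Ngn3-TOMATO 3 were lower and 1 higher, beside all-gene shares of 13.8% and 9.91% lower and 21.1% and 19.2% higher. Vdr, the vitamin D receptor, was at 178 scaled FPKM in GIP-GFP cells, 143 in Ngn3-TOMATO cells and 325 in Ngn3-negative cells, at log2 ratios of -0.87 (-0.91 to -0.82) and -1.18 (-1.22 to -1.15). Its partner Rxra was at 42.0, 27.8 and 61.8. Cyp24a1, the vitamin D-degrading enzyme and a classical target of the receptor, was listed at 0 in all libraries.

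Cldn15, a tight junction protein that forms pores for sodium, was the most abundant of these genes in Ngn3-negative but not in the reporter libraries, at 200 scaled FPKM in GIP-GFP cells, 289 in Ngn3-TOMATO cells and 708 in Ngn3-negative cells. Klf5, a transcription factor of the intestinal epithelium, was at 127, 183 and 309. Casr, the calcium-sensing receptor, went the other way, at 2.67 and 12.5 in GIP-GFP and Ngn3-TOMATO and 0.348 in Ngn3-negative, with log2 ratios of 1.44 (1.09 to 1.79) and 3.32 (3.13 to 3.51).

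The genes with the profile nearest to that of Tfrc and S100g over the 3 libraries were found by the Euclidean distance between log2 profiles, each centred on its own mean, among 10467 genes at 10 scaled FPKM or more in some library. For Tfrc they were Ccnb1 (distance 0.0230), which drives entry into mitosis, Tyms (0.0270), which makes thymidylate for DNA synthesis, and Ano6 (0.0276), a lipid scramblase. Ano6 was at 80.5, 72.9 and 217 scaled FPKM in the GIP-GFP, Ngn3-TOMATO and Ngn3-negative libraries. For S100g they were Gkn2 (0.133), a gastrokine, Akp3 (0.175), an intestinal alkaline phosphatase, and Cyp2c29 (0.241), a cytochrome P450. Akp3 was at 56.9, 87.6 and 669. With 3 libraries such a match is easily had and describes the profile only.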

How the data were processed

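Per the submitters' processing notes, FastQC, TopHat 1.5.0 and Cufflinks were used on mm10. The authors deposited, for each of 59120 UCSC transcript models, its length, its coverage (a signal of mean read depth per base), its FPKM and the lower and upper limits of that FPKM. The deposited FPKM are constant multiples of coverage within a library, and the sources used here do not give the library term behind them. Models were matched without strand to GENCODE M21, on the same genome, by ends, length and a span overlap of at least 0.5, or by lying within a single gene, and 54265 received a symbol. Models under 200 bases, mitochondrial models and values marked as having too many reads were left out. FPKM were summed per symbol and divided by 8190 in every library, which keeps the deposited ratios and gives a mean total of 1000000.

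Genes at 1 scaled FPKM or more in either library were compared as log2 ratios with a pseudocount of 1. Deposited limits were taken as 2 standard errors, added in quadrature over models. Depth per gene is coverage times length. Intervals cover counting error only. With 1 library per group, no test was made. The ratio calculation was tested on simulated data. Python 3.11.15, pandas 2.3.3, numpy 2.4.6 and matplotlib 3.10.9 were used.

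The genes, the lists and the comparisons were chosen with earlier results of these data known. Named genes of a list are its most abundant gene and up to 6 genes with the largest ratios past 2-fold to Ngn3-negative. Transcript models are described where they hold at least 5% of a gene in some library, except for Atp2b1 and Trpv6, which have 1 model each. Promoter sequences are from RefSeq on GRCm38.p6. Alternatives were other pseudocounts, no filter, other scalings, other length minimums, the most abundant transcript alone and exact transcript ends.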

Additional observations from a re-analysis of the deposited data

How the results depend on the processing

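With 10 other settings, 209 ratios of the 8 genes were recomputed, and 207 kept their direction. The exceptions were Atp2b1 in Ngn3-TOMATO against Ngn3-negative under equal totals (-0.17) and Heph between the reporter libraries with totals made equal after leaving out the 20 most abundant genes (0.00), and no ratio past 2-fold changed sign. S100g stayed between -4.07 and -3.55 in GIP-GFP and between -3.15 and -2.76 in Ngn3-TOMATO against Ngn3-negative. Trpv6, being low, ran from -5.11 to -1.23 and from -3.27 to -1.09, with pseudocounts of 0.1 and 5 at the ends. The 3 genes at least 2-fold lower in GIP-GFP than in Ngn3-negative became 5 with a pseudocount of 0.1, 6 under equal totals and 5 with the most abundant transcript. Of all genes, 13.8% were lower in the main setting, against 16.0%, 17.9% and 15.8% in those settings. Only 2 genes, S100g and Atp2b1, have exact transcript ends in the annotation, and 1 of them was at least 2-fold lower in GIP-GFP and 1 in Ngn3-TOMATO than in Ngn3-negative. Of all genes with exact ends, 19.7% were lower in GIP-GFP and 13.3% in Ngn3-TOMATO. With the most abundant transcript, 1 gene (S100g) was at least 2-fold lower in GIP-GFP than in Ngn3-TOMATO, as were 10.8% of all genes. In Ngn3-TOMATO against Ngn3-negative, Slc11a2 was short of 2-fold when scaled by the median ratio (-0.97) or by totals that leave out those 20 genes (-0.95). A minimum length of 500 bases left no value for S100g. No paired analysis was possible because each group has 1 library. Depth limits Trpv6 and Cybrd1 in the reporter libraries.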
